A study of Mus musculus with 4 samples.

Results

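The Janus kinases are the 4 cytoplasmic tyrosine kinases Jak1, Jak2, Jak3 and Tyk2, and all 4 were found by symbol among the 24340 genes of the deposited expression table. The RNA came from bone marrow of C57BL/6 mice, from cells labelled Lin-cKit+, which is to say without mature lineage markers and with the stem cell factor receptor Kit. There were 4 groups of 1 library each: JAK2V617F;Tet2-/- cells given ruxolitinib, JAK2V617F;Tet2-/- control cells, JAK2V617F;Tet2+/+ cells given ruxolitinib and JAK2V617F;Tet2+/+ control cells. All 4 groups thus carried JAK2V617F, an activating allele of JAK2, and no group had an unmutated JAK2. The labels do not say whether the allele sat in the mouse gene or in a transgene, which cells or promoter it was active in, how many animals were pooled, or the dose and time of the drug. The series design names conditional inactivation of Tet2 and of Dnmt3a and a cross to Flt3ITD mice, while the labels of these libraries name neither Dnmt3a nor Flt3ITD.

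Janus kinases are bound to the inner tails of cytokine receptors that have no kinase of their own. When a cytokine brings receptor chains together, the bound kinases phosphorylate each other, the receptor and then STAT proteins, which enter the nucleus and switch on genes, among them the CISH and SOCS proteins that shut the signal off. Jak2 serves the receptors for erythropoietin, interleukin-3 and GM-CSF, Jak1 serves interferon, gp130 and common gamma chain receptors, Jak3 pairs with the common gamma chain, and Tyk2 serves type I interferon, interleukin-10 and interleukin-12 receptors. Ruxolitinib blocks the ATP site of JAK1 and JAK2 proteins, so it acts on kinase activity and not directly on the RNA measured here.

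The allele that all groups share lies in the pseudokinase domain, and V617F, as the labels write it, is the change of residue 617 of JAK2. In the mouse reference, codon 617 of Jak2 lies in exon 13 of 24 at chr19:29294928-29294930 on the plus strand (mm10, GENCODE M21). The stretches below show it with 10 codons on either side, beside the stretches around the aligned codon of the other members. Set side by side, they show how much of this site the family shares. They are coding sequence of the reference transcript with the longest reading frame, 5′ to 3′, with the aligned codon in capitals, and none was read from these libraries.
Jak2: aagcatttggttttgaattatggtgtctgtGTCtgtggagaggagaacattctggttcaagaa
Jak1: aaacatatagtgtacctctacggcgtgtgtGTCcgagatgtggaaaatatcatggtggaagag
Tyk2: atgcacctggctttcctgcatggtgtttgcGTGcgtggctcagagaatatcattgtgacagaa
Jak3: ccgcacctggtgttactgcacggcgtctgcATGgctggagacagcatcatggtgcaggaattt
Jak1 has the same codon as Jak2 at its position 657 (chr4:101163671-101163673, minus strand, exon 14 of 25), Tyk2 has another valine codon at 698 (chr9:21115205-21115207, minus strand, exon 12 of 23), and Jak3 has a methionine codon at 588 (chr8:71682972-71682974, plus strand, exon 13 of 24). Compared position by position with no gaps, 39 of the 63 bases of Jak1, 39 of Tyk2 and 32 of Jak3 equal those of Jak2. The end of the Jak3 stretch is out of step with that of Jak2, so its count without gaps understates their likeness. Over the whole translated reading frames Jak2 was most like Jak3, with 47.6% identical residues, then Jak1, with 41.6%, then Tyk2, with 36.7%. A level for the whole gene does not tell the mutant from the wild-type allele.

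With 1 library a group, the differences below carry no error between replicates and no test. Levels are in FPKM, a count of fragments scaled to transcript length in kilobases and to 1000000 fragments. How the total of each library was set for this scaling was not given in the sources used here. Per library, 10323 to 10375 genes were at 1 FPKM or more. Depth estimated from the steps between low values was 44200000 to 54900000 fragments, on the scale of that total. Kit was at 562, 421, 647 and 487 FPKM in the knockout ruxolitinib, knockout control, wild-type ruxolitinib and wild-type control library. Of the mast cell markers 9 of 10 were measured at a mean of at least 1 FPKM, and Cpa3 was listed at 0 because the authors' software gave no estimate for it. Cma1, at 8289 to 15834 FPKM, Fcer1a, Tpsb2, Mcpt4 and Ms4a2 each stood above Kit in every library. Tpsab1, Mitf and Hdc, the last at 3.68 to 12.2 FPKM, stood below it. Of 6 B cell markers, Ms4a1, Ebf1 and Pax5 were among those at 0 in all libraries, and of 6 stem and progenitor markers Flt3 was listed at 0 while Cd34 and Ly6a were abundant. Xist was at 62.2 and 53.2 FPKM in the knockout ruxolitinib and control libraries and at 0.0309 and 0.0241 FPKM in their wild-type counterparts, while Y-linked Ddx3y showed the opposite pattern, so genotype and sex cannot be told apart. Tet2 itself was at 4.39 and 3.62 FPKM in the knockout libraries and 5.05 and 4.69 FPKM in the wild-type libraries, a level for the whole gene that does not see a deleted exon.

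All Janus kinases were expressed, and Jak1 was the most abundant in every library. Jak1 (chromosome 4, deposited locus 101069038 to 101265282, mm10) was at 71.3 FPKM in the knockout ruxolitinib, 63.4 in the knockout control, 75.3 in the wild-type ruxolitinib and 71.4 in the wild-type control library. Its 4 values span a ratio of 1.19 between highest and lowest, the narrowest of the family. Jak2 (chromosome 19, 29251803 to 29313080) was at 24.9, 24.5, 35.1 and 36.8 FPKM in the same order of libraries. Both knockout values are close to each other and well below both wild-type values, which are also close to each other. Tyk2 (chromosome 9, 21104068 to 21131275) was at 25.4, 24.3, 31.8 and 32.3 FPKM in that order. It shows the same grouping as Jak2 with a smaller gap. Jak3 (chromosome 8, 71676383 to 71690577) was the lowest member in every library, at 16.3, 13.6, 18.2 and 15.6 FPKM in that order. Here each ruxolitinib library lies above the control library of its genotype.

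**Figure D1:**
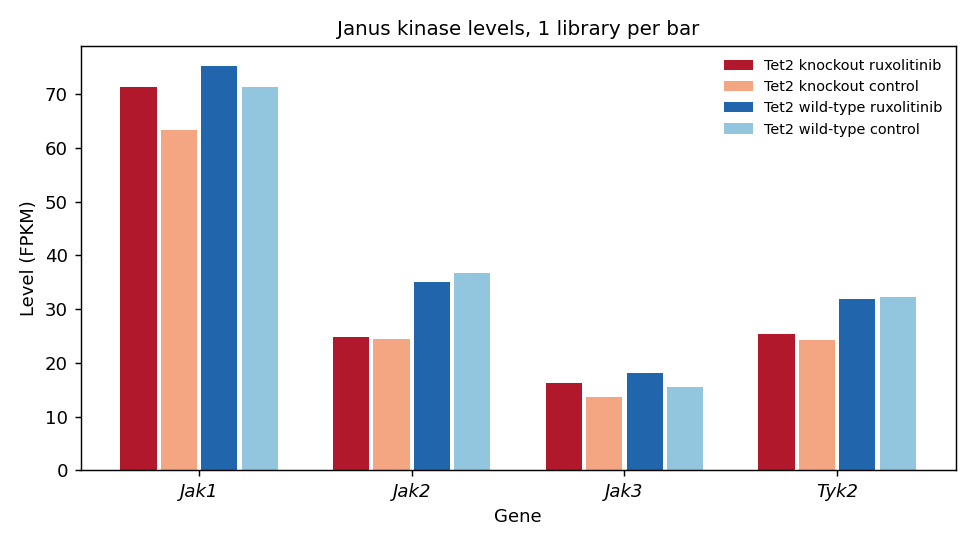
Level of each Janus kinase in FPKM on the vertical axis, with 1 bar per library; no error can be drawn for 1 library. Jak2 is at 24.9 and 24.5 FPKM in the knockout libraries, against 35.1 and 36.8 FPKM in the wild-type libraries, Tyk2 shows a smaller gap of the same kind, and Jak1 tops every library.

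The order by level was Jak1, Jak2, Tyk2 and Jak3 in 3 libraries, and in the knockout ruxolitinib library Tyk2 stood above Jak2. The neighbours Jak2 and Tyk2 were close in the knockout, with 0.981 and 1.01 times as much Jak2 as Tyk2 in the ruxolitinib and control libraries, against 1.10 and 1.14 times in the wild-type libraries. Jak1 was at 1.94 to 2.87 times the level of Jak2, and Jak2 at 1.53 to 2.36 times the level of Jak3, over the 4 libraries. Jak3 was at 0.482 to 0.641 times the level of Tyk2, so Jak2 and Tyk2 were the 1 pair whose order was not the same in all libraries; these ranges run over conditions, not replicates. Among 32 cytoplasmic tyrosine kinases of the table, members included, Jak1 ranked between 4 and 6, Jak2 and Tyk2 between 8 and 10, and Jak3 held rank 13 in every library. The kinases above Jak1 on the mean of the 4 libraries were Csk, a brake on Src family kinases, Btk, which signals from the B cell and IgE receptors, then Fes, Ptk2b and Lyn. Against the 10471 genes whose mean reached 1 FPKM, called measured here, Jak1 lay above 86.3% to 89.1% of genes, Jak2 above 64.8% to 75.7%, Tyk2 above 64.5% to 72.4% and Jak3 above 47.5% to 56.3%.

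The first question of the design is what loss of Tet2 went with. Without drug, Jak2 was the member that differed most, at 24.5 FPKM in the knockout control and 36.8 FPKM in the wild-type control library. Its log2 ratio was -0.57 on the scale of FPKM + 1 used throughout, and 5.34% of measured genes had a ratio as low or lower. Tyk2, at 24.3 FPKM in knockout and 32.3 FPKM in wild type, had a ratio of -0.40, and 9.58% of measured genes were as low. Jak3 was at 13.6 and 15.6 FPKM in the knockout and wild-type control libraries, a ratio of -0.18, and Jak1 was at 63.4 and 71.4 FPKM, a ratio of -0.17. The sign of these last ratios turned when libraries were centred on the other cytoplasmic tyrosine kinases, to 0.00 for Jak3 and 0.02 for Jak1. With that centring Jak2 and Tyk2 stayed negative, at -0.38 and -0.21. They were also negative, at -0.43 and -0.25, with values rescaled to sum to 1000000 per library. A change of pseudocount cannot turn a sign. None of the members was 1.5-fold or more apart by the rule used here, where 5.06% of measured genes were as far lower and 3.88% as far higher. Jak2 lay at the edge of that rule, since without a pseudocount its ratio was -0.59 and 1 member passed. By a looser rule of 0.32 on the log2 scale, which 12.9% of measured genes met on the lower side, Jak2 and Tyk2 were lower, 2 of 4 members. In bulk RNA, fewer cells of a type and less RNA per cell cannot be told apart.

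With ruxolitinib in both genotypes, a pair of libraries separate from the pair without drug, Jak2 was again the lowest member by ratio. It was at 24.9 FPKM in the knockout ruxolitinib and 35.1 FPKM in the wild-type ruxolitinib library, a log2 ratio of -0.48, and 4.64% of measured genes were as low. Tyk2 was at 25.4 FPKM in knockout and 31.8 FPKM in wild type, a ratio of -0.32, with 9.28% of genes as low. Jak3 had a ratio of -0.15, and Jak1 a ratio of -0.08 that became 0.06 with values rescaled to sum to 1000000 per library (TPM). That rescaling moved the median of all measured genes from 0.00 to 0.13. Again no member passed 1.5-fold, where 3.34% of measured genes were lower and 2.97% higher. By the looser rule, which 9.03% of genes met on the lower side, 1 member, Jak2, was lower, and Tyk2 was just short of it. Taking the libraries of each genotype side by side, both knockout values lay below both wild-type values for 3 members, Jak1, Jak2 and Tyk2, a pattern that 28.2% of measured genes showed. For Jak1 the nearest values were 71.3 FPKM in knockout ruxolitinib and 71.4 FPKM in wild-type control cells.

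Counting error was small beside the genotype gap of Jak2. With the estimated depths and reference transcript lengths, Jak2 rested on about 5105 fragments in the knockout control and 6167 in the wild-type control library, from which its log2 ratio without pseudocount had an exact 95% binomial interval of -0.64 to -0.53. With ruxolitinib the interval was -0.55 to -0.44. For Tyk2 the intervals were -0.46 to -0.36 without drug and -0.38 to -0.28 with drug. These intervals cover counting error only, and say nothing of how much animals or cultures of a genotype vary.

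The authors' deposited table, made with Cuffdiff on single libraries, gave Jak2 a q-value of 0.000746 for the knockout against the wild-type control and 0.00307 for the same with ruxolitinib. In that deposited table of the authors Tyk2 had q-values of 0.0197 without drug and 0.0840 with drug, while Jak1 had 0.496 and 0.824 and Jak3 0.443 and 0.554. Their table marked 19.1% of 11375 genes as significant in the first of these comparisons and 13.6% of 11382 in the second, and such a test compares those libraries, not the genotypes. Mast cell marker genes differed with genotype too, their summed level being 21862 and 18052 FPKM in the knockout ruxolitinib and control libraries and 29755 and 26031 FPKM in the wild-type ones. Cma1 and Fcer1a carry that gap, with log2 ratios in knockout of -0.65 and -0.72 with drug and -0.72 and -0.70 without. Of the 9 measured mast cell markers 5 were higher in knockout with drug and 1 without, and Tpsab1 was higher in both, by 1.99 and 1.13. Granulocyte and monocyte markers, of which 2 of 10 were measured, summed to 37.1 and 32.3 FPKM in the knockout libraries and to 112.9 and 93.3 FPKM in the wild-type ones. That gap is in Ctsg, at 27.3 and 27.1 FPKM in knockout and 108.2 and 90.4 FPKM in wild type. Lyz2, the other measured one, had ratios of 0.56 with drug and -0.02 without, and Mpo, which did not reach a mean of 1 FPKM, was higher in knockout by 1.14 and 1.04. Megakaryocyte markers, 3 of 6 measured, summed to 684.8 and 550.3 FPKM in knockout and 939.9 and 817.8 FPKM in wild type, and stem and progenitor markers, 4 of 6 measured, to 1226 and 911 FPKM in knockout and 1476 and 1257 FPKM in wild type. Of the stem and progenitor markers Ly6a was lower in knockout, by log2 ratios of -0.46 with drug and -0.68 without, and Mecom was too, at -0.17 and -0.28, while Cd34 was higher, at 0.11 and 0.05, and so was Hlf, at 0.28 and 0.24. Erythroid markers, 2 of 6 measured, summed to 38.4 and 58.5 FPKM in knockout and 28.7 and 40.8 FPKM in wild type, with Tfrc higher in knockout and Epor lower. B cell markers, none of 6 measured, summed to at most 0.129 FPKM, and T and NK cell markers, 1 of 7 measured with Cd3e, Cd3g, Cd8a and Klrb1c at 0, to at most 1.93 FPKM. The part of these cell types and of sex in the Jak2 and Tyk2 differences was not tested.

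**Figure D2:**
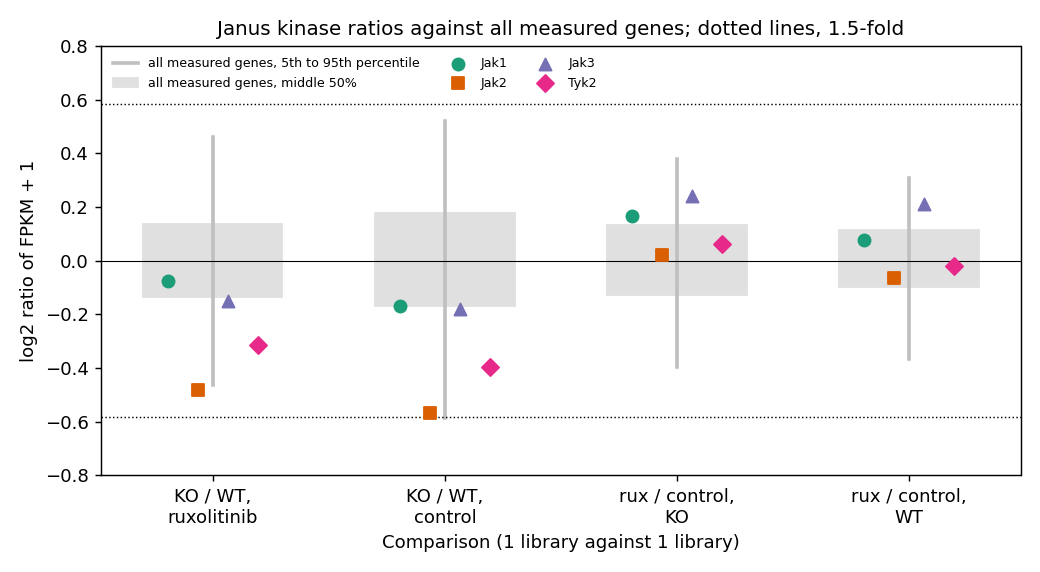
Log2 ratio of FPKM + 1 of each Janus kinase in 4 comparisons of single libraries (KO, Tet2 knockout; WT, wild type; rux, ruxolitinib), over grey boxes for the middle 50% and grey lines for the 5th to 95th percentile of all measured genes; dotted lines mark 1.5-fold. Jak2, at -0.48 and -0.57, and Tyk2, at -0.32 and -0.40, sit below the boxes in the knockout comparisons, and Jak3 sits just below them, at -0.15 and -0.18. In the drug comparisons Jak3, at 0.24 and 0.21, sits above the boxes, and Jak1 does so in knockout cells, at 0.17.

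Ratios between members inside a library do not depend on how libraries were scaled. There was 2.87 and 2.59 times as much Jak1 as Jak2 RNA per length in the knockout ruxolitinib and control libraries, against 2.14 and 1.94 times in the wild-type libraries. The log2 ratio of Jak1 to Jak2 was thus higher in knockout by 0.42 with drug and by 0.42 without it. The ratio of Jak1 to Tyk2 was higher in knockout by 0.25 with drug and 0.24 without it. Jak1 to Jak3 differed least with genotype, by 0.08 with drug and 0.02 without. Of the summed FPKM of the family, Jak2 made up 18.1% and 19.5% in the knockout ruxolitinib and control libraries and 21.9% and 23.6% in the wild-type libraries. Jak1 made up 51.8% and 50.4% in the knockout libraries and 46.9% and 45.8% in the wild-type libraries. The sum itself was 137.8 and 125.8 FPKM in knockout and 160.4 and 156.0 FPKM in wild type.

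**Figure D3:**
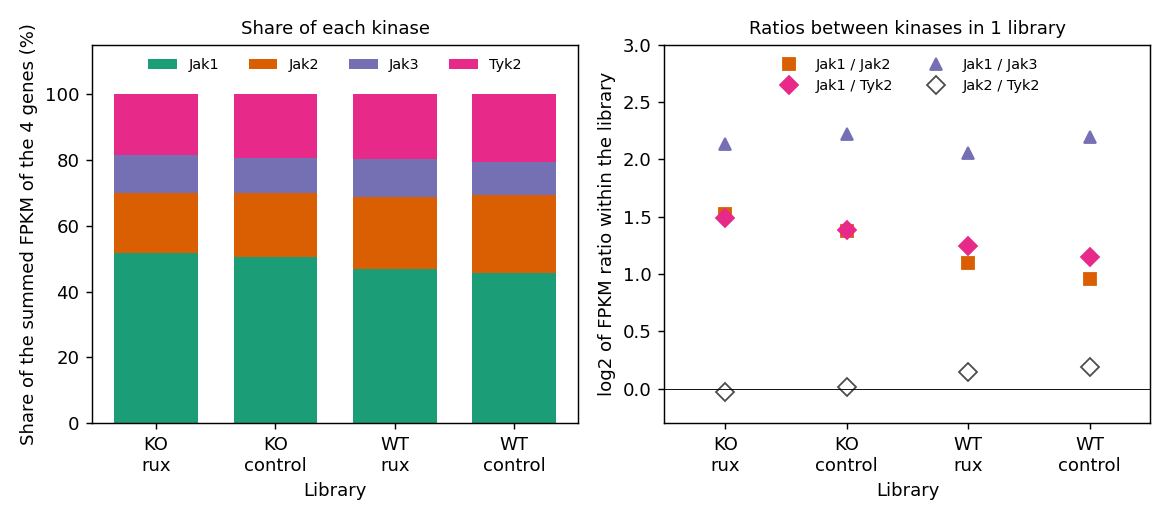
Left, share of each kinase in the summed FPKM of the family, in percent, for each library; right, log2 ratio of FPKM between pairs of kinases inside each library, 1 point per library. The Jak1 to Jak2 ratio stands at 1.52 and 1.37 in the knockout libraries and at 1.10 and 0.96 in the wild-type libraries, while Jak1 to Jak3 stays between 2.05 and 2.22.

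The second question is what ruxolitinib, which blocks the activity of JAK1 and JAK2, went with in the RNA of the kinases. In knockout cells Jak2 was at 24.9 FPKM with drug and 24.5 in control, a log2 ratio of 0.02 with a counting interval of -0.03 to 0.08. In wild-type cells it was at 35.1 FPKM with drug and 36.8 FPKM in control, a ratio of -0.07 with an interval of -0.12 to -0.02. Tyk2 had a ratio of 0.06 in knockout cells and of -0.02 in wild-type cells. The second turned to 0.02 with TPM, where the median of all measured genes was 0.05. Jak1 had ratios of 0.17 in knockout and 0.08 in wild-type cells, which became -0.04 and -0.01 when centred on the other cytoplasmic tyrosine kinases; with that centring Jak2 and Tyk2 in knockout cells also turned negative, to -0.19 and -0.15. The target kinases Jak1 and Jak2 therefore differed by at most 0.17 on the log2 scale between drug and control libraries, as deposited.

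Jak3, which ruxolitinib inhibits less, had the largest positive ratio of the family with drug. It was at 16.3 FPKM with ruxolitinib and 13.6 FPKM in control in knockout cells, a log2 ratio of 0.24 that 12.1% of measured genes reached or passed. In wild-type cells it was at 18.2 FPKM with ruxolitinib and 15.6 FPKM in control, a ratio of 0.21 that 11.2% of genes reached or passed. Counting intervals without pseudocount were 0.18 to 0.33 and 0.15 to 0.30. Both ratios stayed positive after centring on the other tyrosine kinases, at 0.03 in knockout and 0.13 in wild-type cells. With TPM they were 0.27 and 0.26, and a change of pseudocount cannot turn their sign. Jak3 was the 1 member whose ruxolitinib values both lay above both control values, as did 18% of measured genes.

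No member reached 1.5-fold with drug. In knockout cells 1.67% of measured genes were as far higher and 2.2% as far lower, and in wild-type cells 1.05% and 2.64%. In the authors' deposited table the q-values of the drug comparisons lay at 0.253 and 0.345 for Jak3 in knockout and wild-type cells, 0.505 and 0.826 for Jak1, 0.960 and 0.859 for Jak2 and 0.867 and 0.965 for Tyk2. The drug ratio in knockout minus that in wild type was 0.09 for Jak1, 0.09 for Jak2, 0.08 for Tyk2 and 0.03 for Jak3. None came near the 1.5-fold rule for this difference, passed upward by 1.82% and downward by 1.14% of measured genes, and 23.0% to 38.2% of genes had a difference as high as these members. After centring on the other tyrosine kinases the difference of Jak3 was -0.05 and that of Tyk2 -0.00.

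The places of the genes bear on how their fragments were counted. The deposited locus of Jak1 is shared with Raver2, whose end overlaps that of Jak1 on the opposite strand, but Raver2 did not exceed 0.0415 FPKM. The locus of Jak3 is shared with Insl3, a hormone gene inside it on the same strand. Insl3 was at 2.26 and 1.31 FPKM in the knockout ruxolitinib and control libraries and at 2.63 and 1.02 FPKM in the wild-type ones, so it too was higher with drug, by log2 ratios of 0.50 and 0.85, and how fragments were split between both genes is not given in the sources used here. Tyk2 overlaps the annotated antisense gene 1700084C06Rik, which is not analysed here. Nearby measured genes outside the loci did not share the lower knockout level of Jak2 and Tyk2. Rcl1, before Jak2, had log2 ratios of 0.09 with drug and 0.25 without, and Insl6, after it, 0.23 and 0.53. Fdx1l, beside Tyk2, had 0.09 and 0.20, and Cdc37, which encodes a chaperone of kinases, had -0.03 and 0.07.

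The RefSeq promoter table (GRCm38.p6) held 1 window for each member, running from 250 bases before to 50 after the start of the gene. Since Tet2 acts on methylated CpG, the CpG content of these windows is given as a description, and methylation was not measured. Jak2 had 44 CpG, and 98.1% of the 32851 windows had as few or fewer. Jak1 had 29, Tyk2 had 23 and Jak3 had 9, against a median of 7. The upstream parts that overlap no annotated exon are shown for Jak2 (chr19:29251553-29251802, plus strand) and Tyk2 (chr9:21131394-21131525, minus strand). These members had the lowest log2 ratios of knockout to wild type. The stretches run 5′ to 3′ with each CpG in capitals.
Jak2: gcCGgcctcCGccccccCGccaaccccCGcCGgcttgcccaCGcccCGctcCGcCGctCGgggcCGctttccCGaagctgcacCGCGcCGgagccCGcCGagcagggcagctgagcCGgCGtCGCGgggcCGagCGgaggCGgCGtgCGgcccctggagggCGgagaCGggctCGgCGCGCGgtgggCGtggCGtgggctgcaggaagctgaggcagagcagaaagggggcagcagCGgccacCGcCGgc
Tyk2: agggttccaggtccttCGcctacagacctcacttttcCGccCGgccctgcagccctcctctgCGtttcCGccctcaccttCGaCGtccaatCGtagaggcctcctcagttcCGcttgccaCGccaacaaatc
The Jak2 stretch holds 37 CpG in 250 bases and the Tyk2 stretch 10 in 132. The STAT motif TTCNNNGAA, which reads the same on both strands, was in none of the members' windows and in 8.3% of all windows. That says only that these letters are not in those windows.

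By the distance between centred profiles of log2(FPKM + 1) over the 4 libraries, the protein-coding gene most like Jak2 was Ccnd3, a D-type cyclin, at a distance of 0.02. Ccnd3 was at 131.4 and 129.1 FPKM in the knockout ruxolitinib and control libraries and at 186.3 and 195.3 FPKM in the wild-type ones. It was followed by the tetraspanin Cd151 and the sulfotransferase Ndst3, both at 0.03. Within a distance of 0.1 of Jak2 lay 40 of 8010 compared genes, against 137 for Tyk2, 240 for Jak3 and 646 for Jak1. The profile of Jak2 was also the farthest of the family from a flat line, at 0.53, and that of Jak1 the nearest, at 0.18. Nearest to Tyk2 were the actin-binding Lasp1, the glycosyltransferase Gcnt1 and the receptor Treml2. Nearest to Jak3 were Tmub2, the interleukin-1 receptor kinase Irak1 and Zkscan3. Nearest to Jak1 were Dnajb5, Zfp87 and Csnk1g2. Over 4 libraries such likeness is a description.

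The receptors that these kinases serve were partly below detection. For each list below, counts past 1.5-fold stand beside the shares of all measured genes given above for the same comparison. Of 13 JAK2-coupled receptor genes 8 were measured. The beta chains Csf2rb, which serves interleukin-3, interleukin-5 and GM-CSF, and Csf2rb2, which serves interleukin-3, were by far the highest. Csf2rb was at 725 and 926 FPKM in the knockout ruxolitinib and control libraries and 917 and 1199 FPKM in the wild-type ones. The log2 ratios in knockout were -0.34 with drug and -0.37 without for Csf2rb, and -0.41 in both pairs for Csf2rb2. These genes are close copies of each other, so how fragments were split between them is uncertain. The G-CSF receptor Csf3r was listed at 0 in every library. The erythropoietin receptor Epor was low, at 3.29 and 2.46 FPKM in the knockout libraries and 6.37 and 4.68 FPKM in the wild-type ones, and was the 1 receptor of this list past 1.5-fold lower in both knockout comparisons. The interleukin-5 receptor Il5ra was past 1.5-fold higher in both drug comparisons, at 9.02 FPKM with drug and 5.45 FPKM in control in knockout cells and at 6.33 and 3.24 FPKM in wild-type cells. It was also past 1.5-fold higher in the knockout control against the wild-type control, with a log2 ratio of 0.61. The median of the list in knockout was -0.05 with drug and -0.15 without, turning to 0.08 and -0.01 with TPM. All measured genes then had medians of 0.13 and 0.15.

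For Jak3, the common gamma chain Il2rg was at 137 and 146 FPKM in the knockout ruxolitinib and control libraries and 124 and 143 FPKM in the wild-type ones, above the level of Jak3 per length in each library. Of 8 genes in that receptor list 4 were measured, and the interleukin-4 receptor Il4ra was the 1 past 1.5-fold, at 221 FPKM in the knockout control and 344 FPKM in the wild-type control library, a difference no longer past the rule with TPM. Of 15 chains of receptors served by Jak1, by Tyk2 or by both, some of them with Jak2, 8 were measured. The gp130 chain Il6st did not exceed 0.391 FPKM. In this list Il10ra, a chain of the interleukin-10 receptor, passed 1.5-fold lower in the knockout control, at 47.2 FPKM against 87.1 FPKM in the wild-type control. The type I interferon receptor chain Ifnar2, a partner of Jak1, lay between 38.2 and 43.5 FPKM.

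All 7 STAT genes were measured, with a median log2 ratio of -0.11 in knockout with drug and -0.17 without, against 0.00 for all measured genes in both. With TPM these medians became 0.02 and -0.03, against 0.13 and 0.15 for all measured genes. Stat3 was the 1 past 1.5-fold, lower in the knockout control at 25.5 FPKM against 46.3 FPKM in the wild-type control. With ruxolitinib it was at 32.8 FPKM in knockout and 49.5 FPKM in wild type, a ratio of -0.58. Stat5a, which acts after Jak2 in these receptors, was higher in knockout by 0.23 with drug and 0.26 without. In the drug comparisons 0 of 7 STAT genes passed 1.5-fold.

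Inhibitors and targets of the pathway gave the members of the lists that lay farthest from 0 with drug. Of 19 inhibitors measured, 4 were 1.5-fold or more lower with ruxolitinib in knockout cells and 4 in wild-type cells, in each case Cish, Socs1, Socs2 and Socs3, and 0 were as far higher. Of all measured genes, 2.2% in knockout and 2.64% in wild-type cells were as far lower with drug, and 1.67% and 1.05% as far higher. With TPM Socs2 in wild-type cells was no longer past the rule. The median over all 19 was -0.02 in both genotypes, beside 0.00 in knockout and 0.01 in wild type for all measured genes. Cish was at 40.7 FPKM with drug and 113.8 FPKM in control in knockout cells, and at 45.1 and 174.1 FPKM in wild-type cells. The adaptor Sh2b3, also called LNK, which binds and restrains JAK2, had drug ratios of 0.17 in knockout and 0.08 in wild-type cells. Of 13 measured STAT5 targets outside the feedback genes, 5 were lower and 1, Bcl6, was higher in each genotype, the lower ones being Pim1, Pim2, Pim3, Osm and Id1, and the medians were -0.19 in knockout and -0.33 in wild-type cells. In knockout against wild type 2 inhibitors, Cish and Socs3, were lower without drug and 0 with drug, and with TPM Cish no longer passed. Among all measured genes 5.06% were as far lower and 3.88% as far higher without drug, and 3.34% and 2.97% with drug. Of the targets, Ccnd1 and Id1 were higher in both knockout comparisons and Ccnd2 lower in both, while Osm and Ccnd3 were lower without drug but not past the rule with TPM.

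Kinase chaperones, which hold Janus kinases in a form that can be activated, differed by small steps. Of 9 genes, 7 had positive ratios in knockout with drug and 9 without, with medians of 0.17 and 0.25, beside 0.00 for all measured genes in both. All 9 had negative drug ratios in both genotypes, with medians of -0.25 in knockout and -0.12 in wild type, beside 0.00 and 0.01 for all measured genes. With TPM all 9 were positive in both knockout comparisons, with medians of 0.30 and 0.41, beside 0.13 and 0.15 for all measured genes. Their drug ratios stayed negative with TPM. None reached 1.5-fold. The most abundant, Hsp90ab1, was at 788 and 982 FPKM in the knockout ruxolitinib and control libraries and at 744 and 889 FPKM in the wild-type ones. The 15 measured cytoplasmic tyrosine kinases outside the family had medians of -0.06 in knockout with drug and -0.19 without, beside family medians of -0.23 and -0.29. With TPM these became 0.07 and -0.04 for the other kinases, beside -0.11 and -0.15 for the family. With drug their medians were 0.21 in knockout and 0.08 in wild-type cells, beside 0.11 and 0.03 for the Janus kinases. Txk, a kinase of the Tec family, was the 1 past 1.5-fold in all 4 comparisons, lower in each, at 0.764 and 1.74 FPKM in the knockout ruxolitinib and control libraries and 3.90 and 10.8 FPKM in the wild-type ones.

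**Figure D4:**
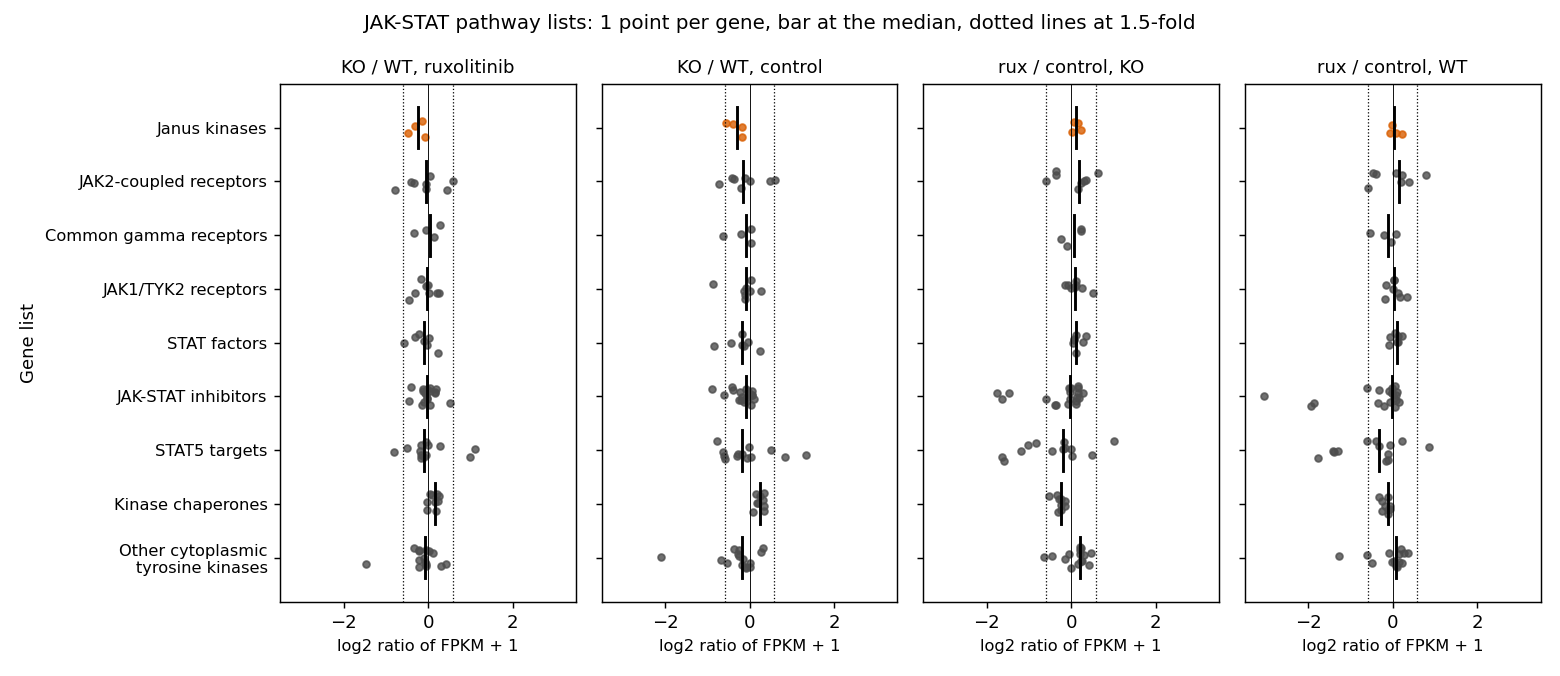
Log2 ratio of FPKM + 1, on the horizontal axis, for every measured gene of the Janus kinases and of 8 pathway lists in 4 comparisons, 1 point per gene with a bar at the median and dotted lines at 1.5-fold. The Janus kinases, in orange, lie within 1.5-fold throughout, while Cish, Socs1 and other inhibitors and STAT5 targets lie far to the left in both drug comparisons.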

How the data were processed

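Total RNA without ribosomal RNA was sequenced on an Illumina instrument, per the labels' protocols. The submitters' processing notes name STAR, Cuffdiff and mm10; versions, annotation, strand and scaling were not given in the sources used here. FPKM values for 24340 genes in 4 libraries were deposited by the authors, with a table of 6 library comparisons with log2 fold changes and with p-values and q-values. The test statistic in the authors' deposited table, a score, was not used, nor were its 2 columns of library values. Each library was grouped by its title. With 1 library per group no test was made. Log2 ratios used FPKM + 1, which understates changes at low level. Measured genes had a 4-library mean of 1 FPKM or more, and 10445 of 10471 matched a reference name. Depth came from genes with 1 transcript over 1500 bases, after taking off 200; 75.9% to 84.7% of held-out low values came within 0.15 of a whole multiple, where an even spread gives 30%. On simulated libraries with counting error only, for the knockout control comparison over 10471 genes, the 1.5-fold rule took in 22% of 50 genes made to change 1.5-fold, 92% of 50 made to change 2-fold and 0 of 10271 others. No variation between animals was put in, so the 0 of 10271 says nothing of how often such variation alone passes the rule. The members, lists and rules were chosen with earlier results of these data known. Named genes were the members, their neighbours, the 3 nearest profiles of each member, and from each list those past 1.5-fold and up to 3 of the most abundant others. Sh2b3, Csf3r, Il6st, the kinases Ptk2b and Lyn and single cell type markers were named after their values were seen. Codons came from GENCODE M21 transcripts, aligned after translation with BLOSUM62 in Biopython 1.88. The work used scipy 1.17.1, numpy 2.4.6, matplotlib 3.10.9, pandas 2.3.3 and Python 3.11.15. Some items are not reported here. Alternatives were pseudocounts of 0.1, 5 and none, TPM, centring on all measured genes or on other cytoplasmic tyrosine kinases, other fold rules and other filters.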

Additional observations from a re-analysis of the deposited data

Results flagged for a closer look

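The drug ratios of Jak2 and Tyk2 had opposite signs in the genotypes. Jak2 had a log2 ratio of 0.02 in knockout and -0.07 in wild-type cells, a difference of 0.0880 that was not tested, and its counting interval in knockout cells includes 0. Tyk2 had 0.06 in knockout and -0.02 in wild-type cells, a difference of 0.0798 that was not tested, and its counting interval in wild-type cells, -0.07 to 0.03, includes 0.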

How the results depend on the processing

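No paired analysis was possible because each group has 1 library. In the knockout control comparison, the count of members at 1.5-fold or more, 0 as reported, was 1 with a pseudocount of 0.1, 1 with no pseudocount, an alternative chosen after seeing the data, and 2 with a rule of 0.32 on the log2 scale. The member added was Jak2, joined by Tyk2 under the looser rule. In the knockout comparison with ruxolitinib it was 1, Jak2, with the looser rule. The counts of both drug comparisons and of their difference were 0 under all alternatives run. Rescaling to TPM cannot change the order of levels inside a library. TPM moved the median of all measured genes in knockout to 0.15 without drug and 0.13 with drug, and Jak2 to -0.43 and -0.36. Over all 6 alternatives the knockout ratio of Jak2 lay between -0.59 and -0.38 without drug and between -0.50 and -0.36 with drug, and that of Tyk2 between -0.41 and -0.21 and between -0.33 and -0.19. Centring on other tyrosine kinases moved 18 of 20 member ratios, and TPM 9, by more than their counting error; a pseudocount of 5 moved 2. With no filter on low values the share of genes at 1.5-fold or more in the knockout control comparison was 4.25%, against 8.94% as reported. Animal-to-animal spread, allele and isoform use cannot be read from these files, and sex cannot be told apart from genotype.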
